A study of Mus musculus with 12 samples.

Results

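The 200 genes described here are those with the highest minimum level over the 12 sequenced libraries of mouse oocytes cut out by laser, out of 55401 genes counted. For each gene the counts were scaled to a library total of 1000000 (CPM), the lowest of the 12 values was taken, and the 200 genes with the highest such value, here called the members, were kept. The members were thus chosen by their CPM in every library, and the levels and their evenness are given below as a description with no test. They are 0.361% of the genes in the table, of which 17728 had a count in any library and 3695 had counts in all 12. The 200th gene, *Tpr*, had a minimum of 2.63 CPM.

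The oocytes came from primordial follicles, in which a resting oocyte lies inside flat pregranulosa cells, and from primary follicles, in which growth has begun and the granulosa cells are cuboidal. Ovaries of 7 to 8-day-old F1 females (C57Bl/6j x CBA/J in the labels, C57BL/6JRj x CBA/JRj in the methods) were kept in culture for 5 days with dorsomorphin (DM), a small molecule used as an inhibitor of the energy sensor AMPK, or with its solvent DMSO (control), and the oocytes were then cut from fixed, paraffin-embedded and stained sections. This gave 4 groups of 3 libraries, which the study's legends call biologically independent samples of 200 pooled oocytes, and the total counts ranged from 14034586 to 42639326 per library. The labels call the controls sham and the material in vivo, whereas the methods describe ovaries in culture. The DM concentration of the sequenced ovaries is not given in the sources used here. The RNA was amplified before library preparation and reads were counted without molecular identifiers, so that precision cannot be read from counts alone, and because oocytes were pooled, a difference in the number of cells expressing a gene cannot be told apart from a difference in RNA per cell.

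Genes with many transcripts in nearly every cell encode the machinery that all cells share: the cytoskeleton, ribosomes and translation factors, RNA-binding proteins, chaperones, and the enzymes that mark proteins with ubiquitin. Small and structural RNAs such as ribosomal RNA, small nucleolar RNAs (snoRNAs, which guide chemical changes or cleavage of ribosomal RNA) and 7SK are also made in nearly all cells. The growing mouse oocyte stores RNA and protein for use after ovulation. Its own marker genes, such as those of the zona pellucida and of oocyte transcription factors, are a separate set.

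By annotation, 181 members were protein-coding and 19 were non-coding. The non-coding members were 4 snoRNAs (*Snord22*, *Snora73b*, *Snord15b* and *Snora73a*), 2 mitochondrial ribosomal RNAs (*mt-Rnr2* and *mt-Rnr1*), the ribosomal RNA locus *CT010467.1*, the 7SK RNA *Rn7sk*, which holds back a kinase of transcription elongation, the RNA of the RNase MRP enzyme under both of its gene records (*Rmrp*), 2 records annotated as miRNA (*Mir6236* and *Gm23935*), the snRNA record *Gm22513*, the long RNAs *Malat1*, *Xist*, *Snhg1*, *Snhg3* and *Gm28037*, and *Gm15564*. *Gm15564* is annotated as antisense and was the only member in the list of ribosomal RNA loci used here. Non-coding records made up 9.5% of the members, and protein-coding ones 90.5% against 96.4% of all genes with counts in the 12 libraries.

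Read against lists of known roles, 30 of 90 cytosolic ribosomal protein genes were members, with 15 of 171 splicing and RNA-binding genes, 8 of 97 chromatin regulators, 8 of 45 genes of very large cytoskeletal and membrane proteins, 7 of 161 ubiquitin ligase and deubiquitinase genes, 6 of 79 translation factors, 5 of 100 genes of the chaperone list, 4 of 88 of the actin and tubulin list, and 1 of 15 glycolysis genes (*Gapdh*). The chaperone list holds *Hspg2* by its symbol alone: it encodes the matrix protein perlecan. *Hist1h4d* was the only member among 110 histone genes in the list. Ribosomal protein genes were widely counted beyond the members: 87 of 90 had counts and 76 had counts in all 12 libraries.

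The members were also compared with other genes in features that the rule did not use directly. CPM, by which they were ranked, is not divided by exon length. Of the 181 protein-coding members, 27 (14.9%) hold an annotated snoRNA gene within their span on the same strand, against 127 of 3560 (3.57%) of the protein-coding genes with counts in all 12 libraries. They include *Eif4g2*, *Rpsa*, *Rpl4*, *Hspa8*, *Eef2*, *Rack1* and *Tpt1*. Exons covered a median of 5.91 kb in the members and 5.94 kb in all genes with counts in the 12 libraries, and exceeded 10 kb in 28.5% and 19.8% of them. On chromosome X lay 14 members (7%), against 3.76% of those genes.

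Several members were not separate measurements. Exons overlapped those of another gene in the table on the same strand in 51 members and on the opposite strand in 58, and the strand setting of the authors' counting is not given in the sources used here. The counts of 6 pairs of members differed by at most 10% of the larger value in every library. Among these pairs were *Snhg1* with *Snord22*, *Rpl24* with *Gm28037*, *Snora73a* with *Snhg3*, both *Rmrp* records, and *Srcap* with *Gm42715*, which all share exon bases. Of the 31-letter words in a member's transcripts, a median of 5.61% also occurred in another gene, against 1.82% for genes with counts in all 12 libraries, and 23 members shared more than 50% of their words, among them *Eef1a1*, *Rplp1*, *Rpl35*, *Hsp90aa1* and *Ftl1*. Their counts depend on how reads with several matches were treated, which is not given in the sources used here.

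The small RNAs are printed because neighbouring records share their letters or their counts. *Snora73a* and *Snora73b* are H/ACA snoRNAs from adjacent copies inside *Snhg3* on the reverse strand of chromosome 4 (chr4:132352775-132352979 and chr4:132352322-132352526, GRCm38). They are 205 bases long and differ at 7, given 5′ to 3′ with the differing bases in capitals:
Snora73a: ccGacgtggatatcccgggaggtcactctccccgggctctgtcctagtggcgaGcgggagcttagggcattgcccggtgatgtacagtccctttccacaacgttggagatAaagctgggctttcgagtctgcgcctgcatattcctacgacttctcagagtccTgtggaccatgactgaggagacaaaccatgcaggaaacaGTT
Snora73b: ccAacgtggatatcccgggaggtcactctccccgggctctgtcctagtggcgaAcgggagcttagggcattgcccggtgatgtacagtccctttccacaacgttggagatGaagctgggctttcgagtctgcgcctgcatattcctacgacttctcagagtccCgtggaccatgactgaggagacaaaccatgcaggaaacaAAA
The differences, from *Snora73a* to *Snora73b* and counted from 1 at the 5′ end, are G3A, G54A, A111G, T164C, G203A, T204A and T205A. *Snord22*, a C/D snoRNA (chromosome 19, chr19:8725866-8725991, plus strand), is shown with the last CTGA, the letters of the D box, in capitals:
Snord22: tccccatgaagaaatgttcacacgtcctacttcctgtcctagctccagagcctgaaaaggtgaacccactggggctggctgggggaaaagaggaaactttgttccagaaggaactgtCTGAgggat
*Snhg1*, its host, held the same counts as *Snord22* within 1.68% in every library although its exons span 2969 bases against 126. The longer *Rmrp* record (chr4:43492783-43493063, reverse strand) is shown with the bases that the shorter record lacks in capitals:
Rmrp: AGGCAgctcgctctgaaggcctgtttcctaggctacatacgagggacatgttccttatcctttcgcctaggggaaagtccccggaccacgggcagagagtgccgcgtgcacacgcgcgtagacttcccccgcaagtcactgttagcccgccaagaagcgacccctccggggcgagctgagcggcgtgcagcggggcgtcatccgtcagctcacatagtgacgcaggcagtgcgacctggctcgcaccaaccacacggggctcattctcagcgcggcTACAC
Both records had equal counts in all 12 libraries, from 5.08 to 65.5 CPM with a median of 10.5.

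*Mir6236* is annotated as a miRNA hairpin. The libraries were not made for miRNAs, so these counts are reads on the locus and not of the mature form. They ranged from 109.9 to 486 CPM with a median of 145. *Gm23935*, a second record of this class (chr16:11144125-11144181, plus strand, GRCm38), is short and rich in G and C:
Gm23935: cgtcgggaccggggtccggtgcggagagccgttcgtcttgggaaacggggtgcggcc
Its level ranged from 18.6 to 269 CPM with a median of 40.1. The highest library of both, and of 8 of the 19 non-coding members in all, was control replicate 3 of primordial follicles, which was the highest library of 11 of the 181 protein-coding members. The other 6 were *CT010467.1*, *Rn7sk*, both *Rmrp* records, *Gm15564* and *Gm22513*. *CT010467.1* had 3356, 4013 and 13566 CPM in the controls of primordial follicles, and between 1997 and 4742 CPM in the libraries of the other groups.

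The members took between 23.5% and 37.9% of the counts in a library, with a median of 26%. The shares were 26.2%, 24.2% and 28% in controls and 27.7%, 23.5% and 26.7% with DM in primordial follicles. In primary follicles they were 23.6%, 25.6% and 32.9% in controls and 25%, 37.9% and 25.9% with DM. The groups overlapped, and both shares above 30% were of primary libraries, control replicate 3 and DM replicate 2.

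Abundance in every library held for part of the members. A minimum of at least 1000 CPM was found for 9 and of at least 100 CPM for 54, whereas 83 fell under 10 CPM in some library and 50 under 5 CPM. Between 50 and 100 of the members were among the 200 highest genes of any one library. The median member differed 77-fold between its highest and its lowest library. In 12 members this fold was at most 5 and in 21 more it was at most 10, and in 25 it exceeded 1000. Within a group, the largest fold between libraries had a median of 28.7 over the members. The fold between the highest and the lowest geometric mean of the 4 groups had a median of 4.08. These are unlike quantities: the former is the largest of 4 groups and between single libraries, and the latter is between means, which vary less. Libraries ranked the 200 members with a Spearman correlation between 0.25 and 0.808 (median 0.555) in 12 pairs within a group and between 0.156 and 0.835 (median 0.519) in 54 pairs between groups. These correlations are across genes, which are not independent replicates, and the pairs share libraries.

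**Figure D1:**
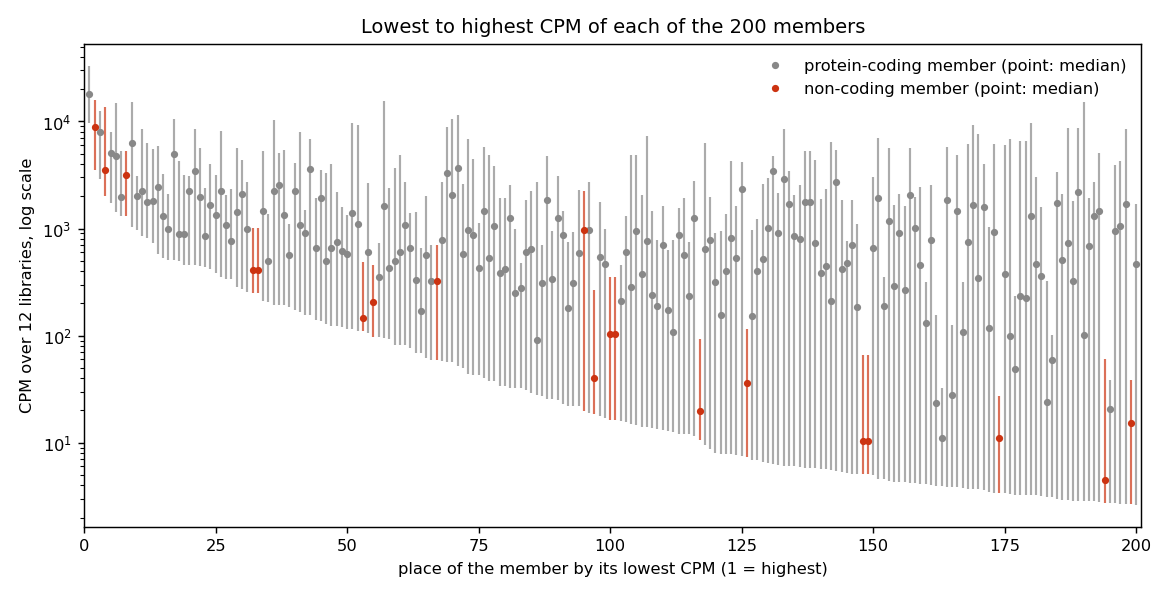
CPM of each of the 200 members on a log scale, from the lowest to the highest of the 12 libraries (line) with the median (point), ordered by the lowest value; non-coding members are red. The 9 members with minima of at least 1000 CPM stand at the left, and many lines on the right reach from under 10 CPM to above 1000.

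Low values lay mainly in a few libraries. A value under 1% of the member's own median over the 12 libraries was found in 45 members, 52 values of 2400 in all, and in 39 of these members it occurred in 1 library. Control replicate 3 of primary follicles held 22 of them, DM replicates 1, 2 and 3 of primary follicles 7, 9 and 7, DM replicates 2 and 3 of primordial follicles 2 and 4, and control replicate 3 of primordial follicles 1. The other 5 libraries held 0. Primary libraries thus held 45 of the 52, and a library with these values counted 6810 genes at its lowest (control replicate 3 of primary follicles) against 13144 in control replicate 1 of primordial follicles. Such a value was found in 0 of the 19 non-coding members, and 155 members in all had none. In part this follows from the rule, which bounds the minimum from below. A member with a low median could not fall under 1% of it. Among the non-coding members this holds for *Rn7sk*, *mt-Rnr1*, both *Rmrp* records, *Gm15564*, *Gm22513* and *Xist*, which stayed under 200 CPM in every library.

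**Figure D2:**
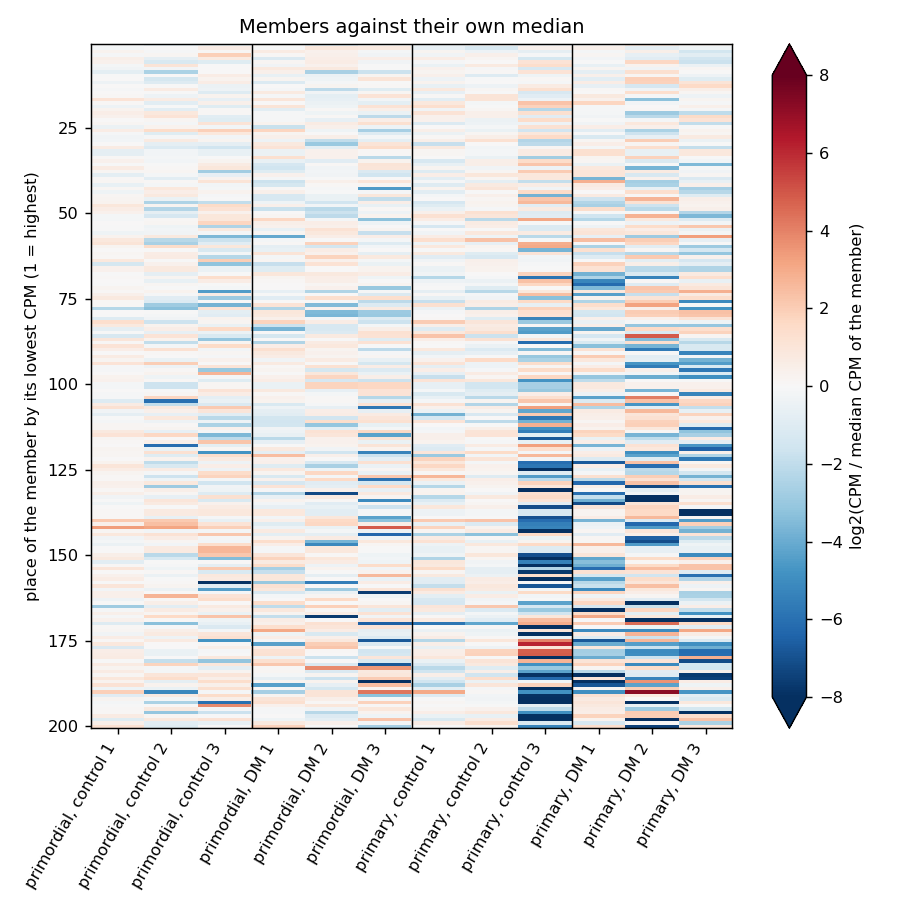
Log2 ratio of each member's CPM to its own median over the 12 libraries, with the members in rows by their lowest CPM and the libraries in columns by group. Dark blue cells, the lowest values, are most frequent in control replicate 3 and the DM replicates of primary follicles.

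**Figure D3:**
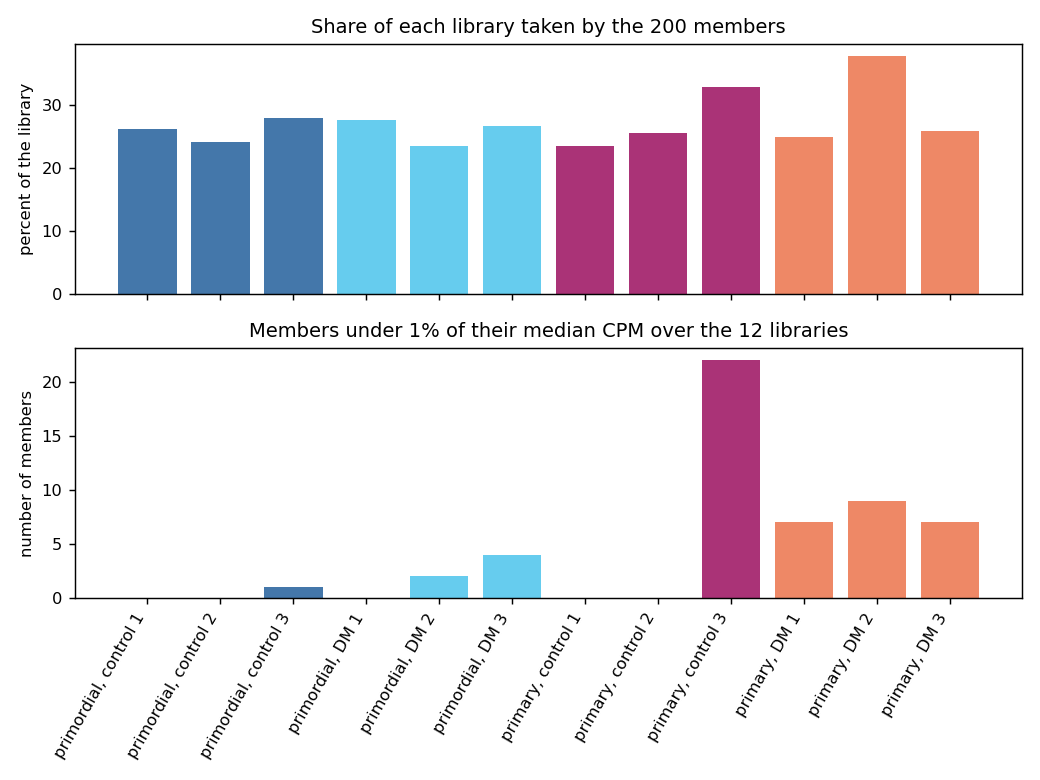
Share of each library's counts taken by the 200 members (top, percent) and number of members under 1% of their median CPM (bottom), by library. Shares lie between 23.5% and 37.9%, and the number of low members is highest, 22, in control replicate 3 of primary follicles.

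Beta-actin led the levels. Its gene, *Actb* (chromosome 5, 142903115 to 142906754, GRCm38), had the highest minimum and the smallest spread of all members, with an SD of 0.478 on the log2 CPM scale over the 12 libraries. It had 18382, 11554 and 12201 CPM in control and 19658, 9666 and 17408 CPM in DM libraries of primordial follicles, and 13927, 20557 and 13642 CPM in control and 18524, 33005 and 20575 CPM in DM libraries of primary follicles. The groups overlapped, and *Actb* alone took 0.967% to 3.3% of a library. The gene of the other cytoplasmic actin, *Actg1*, ranged from 25.1 to 3086 CPM with a median of 1265. *Tubb5*, a beta-tubulin, ranged from 5.91 to 2570.2 CPM with a median of 796, and *Tpm1*, a tropomyosin that binds actin filaments, from 2.76 to 5092 CPM with a median of 1445. Their lowest values were in primary libraries, in DM replicate 2 for *Actg1* and control replicate 3 for *Tubb5* and *Tpm1*.

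In translation, *Eif4g2*, an initiation factor that can act without cap binding, was the highest. *Eif4g2* had 9587, 7263 and 8511 CPM in control and 12505, 10146 and 7138 CPM in DM libraries of primordial follicles, and 9175, 5951 and 4866 CPM in control and 7145, 10941 and 2910.1 CPM in DM libraries of primary follicles. *Pabpc1*, which coats the poly(A) tail, ranged from 1441 to 14834 CPM with a median of 4730.4. The elongation factors followed: *Eef1a1*, which brings aminoacyl-tRNA to the ribosome, ranged from 457 to 3126 CPM with a median of 2239.5, *Eef2*, which moves the ribosome along, from 341 to 2055 CPM with a median of 1075, and *Eef1b2*, the exchange factor, from 13.4 to 787 CPM with a median of 188. The initiation factors *Eif4a1* and *Eif4g1* had higher spreads, with SDs of 1.86 and 2.01 on the log2 CPM scale against 0.576 for *Eif4g2*.

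The 30 ribosomal protein members were uneven among themselves. Their minima ran from 2.67 to 1315 CPM and the fold between highest and lowest library from 3.16 to 3165, with a median of 82.9. *Rpsa*, the laminin receptor and small-subunit protein, had the highest minimum and ranged from 1315 to 5268 CPM with a median of 1981. *Rpl17* ranged from 972 to 3075 CPM with a median of 2004 and *Rpl4* from 535 to 3239 CPM with a median of 1299.7. The lowest value of these 3 genes in any library was thus 535 CPM. At the other end, *Rpl19* had 715, 2608 and 3.5 CPM in controls and 2049, 2.67 and 8461 CPM with DM in primary follicles, while its 6 primordial libraries lay between 857 and 8251 CPM. *Rpl8* and *Rpl35* were low but present throughout, from 2.72 to 38.1 CPM with a median of 20.6 and from 3.09 to 102 CPM with a median of 59.7. Subunits that stand in equal numbers in the ribosome thus differed widely in counts, also per kilobase of exon, where the medians were 1510.3 CPM per kb for *Rpl17* and 15.1 CPM per kb for *Rpl8*.

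RNA-binding members included *Hnrnph1*, a splicing regulator, which ranged from 1024 to 15271 CPM with a median of 6274, *Hnrnpu*, a nuclear scaffold protein (from 354 to 8177 CPM with a median of 2229), *Hnrnpa3* (from 284 to 5618 CPM with a median of 1432) and the helicase *Ddx5* (from 275 to 4348 CPM with a median of 2117). The long nuclear RNA *Malat1*, which lies in nuclear speckles (chromosome 19, 5795690 to 5802672), was the second highest member. *Malat1* had 7943, 8960.3 and 13197 CPM in control and 8678, 15875 and 14604 CPM in DM libraries of primordial follicles, and 5505, 3554 and 11428 CPM in control and 11644, 5296 and 6880.2 CPM in DM libraries of primary follicles. *Xist*, the RNA that silences an X chromosome, was low, from 2.65 to 38.8 CPM with a median of 15.3, and was next to last by its minimum. The mitochondrial 16S ribosomal RNA *mt-Rnr2* ranged from 1304 to 5324 CPM with a median of 3142, against from 7.41 to 115 CPM with a median of 36 for the 12S RNA *mt-Rnr1*. Per kilobase, their medians were 1986 and 37.7 CPM per kb. No protein-coding gene of the mitochondrial genome was a member, and 14 of its 37 genes had any count. Whether the library preparation took up all these RNAs alike was not tested, so a low or missing count does not show little RNA in the oocyte.

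Among the enzymes of protein turnover, *Usp9x*, an X-linked deubiquitinase, ranged from 1736 to 7921 CPM with a median of 5022. The ubiquitin ligase genes *Trip12*, *Huwe1* and *Herc1* ranged from 821 to 6275 CPM with a median of 1781, from 457 to 8433 CPM with a median of 3456 and from 122 to 2205 CPM with a median of 748. Of the chaperones, *Hspa8* ranged from 854 to 8457 CPM with a median of 2254, *Hsp90ab1* from 450.0 to 5696 CPM with a median of 1965 and the endoplasmic reticulum form *Hsp90b1* from 256 to 2721 CPM with a median of 980.2. Chromatin members were led by the acetyltransferase *Crebbp* (from 193 to 10347 CPM with a median of 2241), with the remodeller *Smarca5* (from 127 to 3336 CPM with a median of 497) and the histone methyltransferase *Kmt2d* (from 115 to 9750.3 CPM with a median of 1396). The very large proteins were led by *Ahnak*, a scaffold at the plasma membrane (from 512 to 10481 CPM with a median of 4993), the apoptosis inhibitor and ligase *Birc6* (from 502 to 4234 CPM with a median of 887), the dynein motor heavy chain *Dync1h1* (from 212 to 5346 CPM with a median of 1468) and the spectrin *Sptbn1* (from 137 to 3536 CPM with a median of 1908). *Gapdh*, often taken as a reference gene, was not even here: it had 721, 393 and 429.6 CPM in control and 15.9, 204 and 1791 CPM in DM libraries of primordial follicles, and 52.9, 628 and 1184 CPM in control and 2.87, 16.9 and 254 CPM in DM libraries of primary follicles. Its lowest and highest libraries differed 624-fold, and *Actb* differed 3.41-fold.

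The labelled cell type was checked against marker genes. Of 22 oocyte markers 0 were members and 5 (*Ddx4*, *Kit*, *Padi6*, *Zp1* and *Zp2*) had counts in all 12 libraries. Of these 5, *Zp1* and *Zp2* had more than 3 counts in only 11 and 10 libraries. *Bmp15* had 0 counts in 7 libraries, *Gdf9* in 3 and *Zp3* in 4. Of 10 stroma and theca markers 3 were members: the collagen genes *Col1a1* (from 191 to 5429 CPM with a median of 1327), *Col1a2* (from 164 to 7897 CPM with a median of 1088) and *Col3a1* (from 61.6 to 2019 CPM with a median of 565). The rest of this list was uneven or mostly absent. *Cyp17a1* had 0 counts in 11 libraries, *Tcf21* in 9, *Lum* in 4 and *Tagln* in 3. *Pdgfra*, *Acta2* and *Dcn* had counts in all 12 libraries. They ranged from 0.164 to 266, from 0.132 to 525 and from 0.324 to 192 CPM. Matrix genes outside the list, *Sparc*, *Col6a1*, *Lamb1*, *Serpinh1* and *Hspg2*, were also members. They were picked after the members were seen, and matrix genes that were not members were not counted. Of 13 granulosa markers 0 were members, but *Foxl2*, a transcription factor of granulosa cells, was at place 208 with 2.54 to 11123 CPM. Of the others, *Inha*, *Nr5a2*, *Kitl* and *Amhr2* had counts in all 12 libraries, and more than 3 counts in 12, 10, 9 and 10 of them. *Fshr*, *Cyp19a1* and *Nr0b1* had 0 counts in all 12, *Inhba* in 11, *Hsd17b1* in 10 and *Amh* in 6. The summed CPM of the oocyte list ran from 39 to 1282 and from 17.4 to 1079.6 in control and DM libraries of primordial follicles, and from 38.1 to 1490.2 and from 56.6 to 1118 in those of primary follicles. For the stroma list these ranges were 2545 to 3479 and 2165 to 4149, and 2649 to 6492 and 2177 to 12856, with a lowest sum of 2165 CPM. For the granulosa list they were 364 to 1854 and 4.28 to 289, and 106 to 7450.3 and 373 to 11124. *Foxl2* alone held 11123 CPM of the highest of these sums. Few genes also carried sums of the other lists. *Col1a2* alone held 7897 CPM of the highest stroma sum, 12856 CPM. *Ddx4* alone held 1113 CPM of the oocyte sum of 1118 CPM with DM in primary follicles. The sums are thus not totals of a cell type. The red cell markers were at 0 in all libraries, and the endothelial and immune lists summed to at most 609 and 16.5 CPM. The part of other cell types in the members' levels was not tested.

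The members with the smallest SD of log2 CPM were *Actb*, *Rpl17*, *mt-Rnr2*, *Eif4g2* and *Mir6236*, with SDs from 0.478 to 0.589. Those with the largest were *Lcor*, a nuclear receptor corepressor, *Tpm1*, *Rpl19*, the splicing factor *Hnrnpc* and the RNA-binding protein gene *Hdlbp*, with SDs from 3.57 to 4.11, and the median member had 1.67. Low values of such members lay in part of the libraries, as in *Hnrnpc*. It had 1923, 3353 and 3361 CPM in control and 1528, 2012 and 3211 CPM in DM libraries of primordial follicles, and 2390.0, 561 and 7.14 CPM in control and 2.98, 897 and 8.38 CPM in DM libraries of primary follicles. All 6 primordial libraries of *Hnrnpc* had at least 1528 CPM and 3 of the 6 primary libraries were under 10. The last members inside the rule were *Rpl19*, *Xist* and *Tpr*, with minima of 2.67, 2.65 and 2.63 CPM. The first genes outside were *Psip1*, the pseudogene *Rpsa-ps10* and *Ube4b*, with 2.62, 2.62 and 2.6 CPM.

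**Figure D4:**
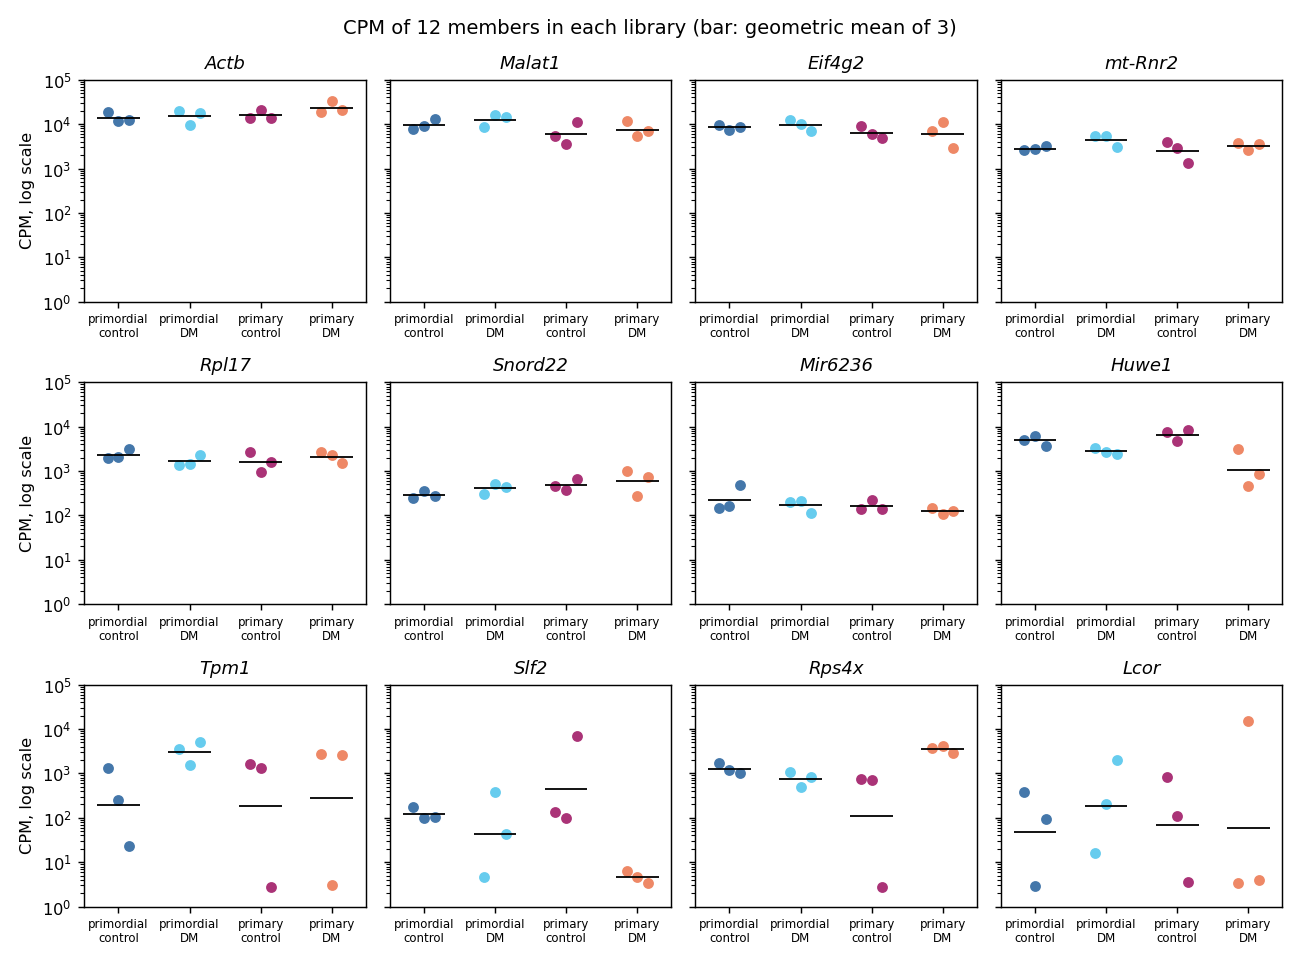
CPM on a log scale of 12 members in each of the 12 libraries, by group, with the geometric mean of each group as a bar. *Actb*, *Malat1*, *Eif4g2*, *mt-Rnr2*, *Rpl17*, *Snord22* and *Mir6236* have highest-to-lowest folds of at most 5 over the libraries, whereas *Tpm1*, *Slf2*, *Rps4x* and *Lcor* each have libraries under 10 CPM.

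The first comparison asks whether DM changed these genes in primordial follicles, and the levels of *Actb*, *Malat1* and *Eif4g2* overlapped between both groups. In oocytes of primordial follicles, 0 of the 200 members differed between DM and control at an adjusted p under 0.05, and 0.0149% of the 6699 genes tested did (quasi-likelihood test of edgeR, Benjamini-Hochberg adjusted over all genes tested, 3 libraries against 3). Of the members, 4 were higher and 0 lower at an unadjusted p under 0.05 (2% and 0% of the members, against 2.48% and 4.85% of all genes tested). These members were *Tpm1*, the Wnt effector and adhesion gene *Ctnnb1* (beta-catenin), *Hnrnpa2b1*, an RNA-binding protein, and *Malat1*. DESeq2, a second count test, called 8 members higher and 0 lower (4.21% and 5.49% of all genes tested). It gave no adjusted p for 4 members, and its scaling put the median log2 fold change at 1.03 over the members and 0.56 over all genes. The 3 DM libraries lay all above the 3 control libraries in 6 members (3%, against 2.06% of all genes tested) and all below in 11 (5.5% against 11.0%). By the rule the members hold no zeros, which the other genes tested may. Here and in the comparisons below, shares and medians of the members and of all genes are thus of unlike genes.

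*Tpm1* (chromosome 9, 67022590 to 67049406) had 1317, 254 and 23.3 CPM in control and 3531, 1573 and 5092 CPM in DM libraries of primordial follicles. All DM libraries were above all controls (log2 fold change 3.67, SE 1.08, adjusted p = 0.412 in edgeR's test, and 2.65 with library size alone), and leaving out single libraries gave values from 2.97 to 4.83. *Ctnnb1* had 3339, 829 and 175 CPM in control and 6584, 3631 and 1677 CPM in DM libraries. Its groups overlapped (log2 fold change 2.25, SE 0.94, adjusted p = 0.644, edgeR), and the value with library size alone was 1.43. *Hnrnpa2b1* had 1714, 1471 and 695 CPM in controls and 3965, 3022 and 3355 CPM with DM, with no overlap (log2 fold change 1.98, SE 0.95, adjusted p = 0.658, edgeR, and 1.40 with library size alone).

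On the lower side no member passed the unadjusted threshold. *Cdc42*, a small GTPase that organises actin, had 708, 2256 and 3752 CPM in controls and 203, 3.73 and 609 CPM with DM (log2 fold change -2.56, SE 1.33, adjusted p = 0.658, edgeR, and -4.19 without DM replicate 3). *Gstm1*, a glutathione transferase, had 1783, 1358 and 3238 and 567, 482 and 13.9 CPM (log2 fold change -2.20, SE 1.36, adjusted p = 0.67, edgeR), and *Pcbp1*, a poly(C)-binding protein gene, 771, 928 and 1865 and 241, 253 and 5.27 CPM (log2 fold change -2.49, SE 1.73, adjusted p = 0.713, edgeR). In all 3 genes the DM libraries lay below the controls, and 1 DM library, replicate 2 for *Cdc42* and replicate 3 for *Gstm1* and *Pcbp1*, was far below the other two. The median log2 fold change was 0.54 over the members and 0.13 over all genes tested with TMM scaling (TMM, the trimmed mean of log ratios by which edgeR scales libraries), and 0.000678 and -0.43 with library size alone. A positive fold change was found for 145 members with TMM scaling (72.5%, against 52.0% of all genes tested) and 100 with library size alone (50% against 42.7%). Of the 30 ribosomal protein members 0 passed the unadjusted threshold, with a median log2 fold change of 0.43 with TMM and -0.14 with library size alone. Of the 84 ribosomal protein genes tested, members or not, 0 were higher and 0 lower at that threshold.

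The same question in primary follicles gave 0 of 200 members at an adjusted p under 0.05, where 0% of the 4181 genes tested passed (quasi-likelihood test of edgeR, Benjamini-Hochberg adjusted over all genes tested). Of the members, 1 was higher and 3 lower at an unadjusted p under 0.05 (0.5% and 1.5% of the members, against 4.04% and 8.11% of all genes tested): *Lcor* was higher, and *Slf2*, *Srcap* and *Gm42715* were lower. DESeq2 called 30 members higher and 0 lower (11.2% and 5.52% of all genes tested). It gave no adjusted p for 78 members, and its scaling put the median log2 fold change at 1.17 over the members and 2.04 over all genes. Among those higher by DESeq2 were the ribosomal protein genes *Rps4x*, *Rpl19* and *Rpl11*. The 3 DM libraries lay all above the 3 control libraries in 12 members (6%, against 1.27% of all genes tested) and all below in 12 (6% against 11.8%). All genes tested include genes with zeros, which the rule keeps out of the members, so the shares are not of like genes.

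The member with the smallest p was *Slf2*, which acts in DNA repair (chromosome 19, 44931151 to 44983299). It had 139, 97.6 and 6819 CPM in controls and 6.25, 4.6 and 3.34 CPM with DM of primary follicles (log2 fold change -9.67, SE 3.64, adjusted p = 0.395, edgeR), and without control replicate 3, the highest library, the log2 fold change was -2.55. *Srcap*, a chromatin remodeller gene whose counts were nearly those of the overlapping *Gm42715*, had 326, 802 and 6505 and 35.2, 7.22 and 3.28 CPM (log2 fold change -8.31, SE 3.45, adjusted p = 0.395, edgeR), and -3.40 without the same library. In both genes the groups did not overlap. *Lcor* had 836, 109 and 3.57 CPM in controls and 3.34, 15334 and 3.93 CPM with DM (log2 fold change 6.43, SE 2.91, adjusted p = 0.395, edgeR). A single library carried that value, and without DM replicate 2 it was -4.68.

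*Rps4x*, an X-linked ribosomal protein gene, had 746, 707 and 2.7 CPM in controls and 3729, 4232 and 2869 CPM with DM (log2 fold change 4.91, SE 2.94, adjusted p = 0.408, edgeR). The DM libraries were all above the controls, and without control replicate 3, the lowest, the log2 fold change was 4.53. With library size alone it was 2.78. *Ctnnb1* had 366, 2193 and 4.53 CPM in controls and 107, 5538 and 7063 CPM with DM, with overlap (log2 fold change 4.62, SE 2.79, adjusted p = 0.41, edgeR, and 2.16 with library size alone). The median log2 fold change was 0.69 over the members and 0.31 over all genes tested with TMM scaling, and 0.0762 and -0.96 with library size alone. A positive fold change was found for 132 members with TMM scaling (66%, against 52.6% of all genes tested) and 102 with library size alone (51% against 40.1%). Without control replicate 3 of primary follicles the members' median with TMM was 2.27. The ribosomal protein members had medians of 1.22 with TMM and 0.26 with library size alone, with 0 of 30 past the unadjusted threshold, and the same held for the 80 genes of that list that were tested (0 higher and 0 lower).

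The 3 DM libraries were all above or all below the 3 controls in both stages for 5 members (2.5%, against 2.03% of the 3838 genes tested in both stages), and in the same direction for 3 (1.5% against 1.80%). *Gstm1*, *Atrx* and *Huwe1* were lower with DM in both, and *Rack1* and *Tmsb10* went opposite ways. *Huwe1*, a ubiquitin ligase gene (chromosome X, 151800807 to 151935417), had the smallest spread of these. *Huwe1* had 5033, 6268 and 3697 CPM in control and 3216, 2693 and 2409 CPM in DM libraries of primordial follicles, and 7416, 4652 and 8433 CPM in control and 3068, 457 and 849 CPM in DM libraries of primary follicles. Its log2 fold change was -0.38 (SE 0.77) in primordial and -2.35 (SE 2.45) in primary follicles (-0.32 without control replicate 3), with adjusted p of 0.935 and 0.61 in edgeR's test. With library size alone these were -0.86 and -2.26, and in primordial follicles the direction turned without control replicate 2 (0.16) and with the size factors of DESeq2 (0.14). *Atrx*, an X-linked chromatin remodeller, had 692, 1678 and 1135 CPM in controls and 363, 213 and 509 CPM with DM in primordial follicles, and 1069, 712 and 4841 and 102, 331 and 81.8 CPM in primary follicles. Its log2 fold changes were -1.27 and -3.73 (adjusted p = 0.861 and 0.495, edgeR), with -0.63 in primordial follicles without control replicate 2 and 0.0485 in primary follicles without control replicate 3. *Gstm1* had 963, 1152 and 7339 CPM in controls and 142, 433 and 205 CPM with DM in primary follicles (log2 fold change -3.76, SE 2.73, adjusted p = 0.475, edgeR), and 0.40 without control replicate 3. The values without single libraries are with TMM scaling, where the members' median was 2.27 without control replicate 3 of primary follicles. In CPM the DM libraries of *Huwe1*, *Atrx* and *Gstm1* stayed below all remaining controls.

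*Rack1*, a scaffold on the small ribosomal subunit, had 642, 418 and 484 CPM in controls and 675, 1778 and 755 CPM with DM in primordial follicles, and 149, 589 and 1695 and 63.4, 33.6 and 17.8 CPM in primary follicles. It was higher with DM in the 3 primordial and lower in the 3 primary libraries. *Tmsb10*, which binds actin monomers, had 754, 1546 and 1798 and 744, 409.5 and 626 CPM in primordial and 1118, 722 and 3.41 and 1390.0, 6131 and 1426 CPM in primary follicles, in the opposite directions. The stage-by-DM term had adjusted p values of 0.295 (*Rack1*) and 0.274 (*Tmsb10*) (edgeR, 12 libraries), so a difference between the stages was not shown for either.

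The next comparisons ask how the members differ between follicle stages. In controls, 0 of 200 members differed between primary and primordial follicles at an adjusted p under 0.05, where 0% of the 6726 genes tested did (quasi-likelihood test of edgeR, Benjamini-Hochberg adjusted over all genes tested). Of the members, 9 were higher and 0 lower at an unadjusted p under 0.05 (4.5% and 0% of the members, against 2.99% and 3.45% of all genes tested). Among these were *Slf2*, *Srcap*, *Gm42715*, *Ctnna1* (alpha-catenin), *Jak1* (a cytokine receptor kinase), the transcription factor gene *Tcf4*, the RNA-binding protein gene *Nono* and the ubiquitin ligase scaffold gene *Cul3*. DESeq2 called 1 member higher and 0 lower (1.59% and 2.68% of all genes tested). It gave no adjusted p for 113 members, and its scaling put the median log2 fold change at 2.88 over the members and -0.0305 over all genes. The member called by DESeq2 was *Hnrnpul2*, of the heterogeneous nuclear ribonucleoprotein family. The 3 primary libraries lay all above the 3 primordial libraries in 8 members (4%, against 1.23% of all genes tested) and all below in 12 (6% against 8.46%). The smallest p values were again of *Slf2*, with 178, 99.5 and 106 CPM in primordial and 139, 97.6 and 6819 CPM in primary libraries (log2 fold change 6.60, SE 2.45, adjusted p = 0.672, edgeR), and of *Srcap* with *Gm42715*, where *Srcap* had 343, 166 and 224 and 326, 802 and 6505 CPM (log2 fold change 5.64, SE 2.35, adjusted p = 0.745, edgeR). Both rested on primary control replicate 3, without which the values were -0.0116 and 1.18.

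Among the members lower in primary follicles with the smallest p were *Greb1*, an oestrogen-responsive gene (577, 2359.7 and 959 CPM in primordial and 294, 206 and 9.96 CPM in primary controls, log2 fold change -2.99, SE 2.33, adjusted p = 0.836, edgeR, and -1.84 without primordial control replicate 2), and the splicing cofactor *Son* (3523, 3880.0 and 8911 and 681, 3143 and 57.3 CPM, log2 fold change -2.22, SE 2.08, adjusted p = 0.881, edgeR). Their primary libraries were all below the primordial ones, and control replicate 3 was the lowest in each. The median log2 fold change was 0.86 over the members and -0.31 over all genes tested with TMM scaling, and 0.0313 and -0.50 with library size alone. A positive fold change was found for 139 members with TMM scaling (69.5%, against 45.7% of all genes tested) and 102 with library size alone (51% against 41.5%). Without primary control replicate 3 the members' median with TMM was -0.16, and without primary control replicate 2 it was 1.83. The ribosomal protein members had a median of 0.16 with TMM and -0.48 with library size alone.

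After DM, 0 of 200 members differed between primary and primordial follicles at an adjusted p under 0.05 (0% of the 4331 genes tested, quasi-likelihood test of edgeR, Benjamini-Hochberg adjusted over all genes tested). Of the members, 3 were higher and 0 lower at an unadjusted p under 0.05 (1.5% and 0% of the members, against 5.54% and 11.7% of all genes tested), among them *Lcor* and *Hnrnpd*. DESeq2 called 60 members higher and 0 lower (11.0% and 10.6% of all genes tested). It gave no adjusted p for 25 members, and its scaling put the median log2 fold change at 3.28 over the members and 2.05 over all genes. The 3 primary libraries lay all above the 3 primordial libraries in 6 members (3%, against 1.45% of all genes tested) and all below in 10 (5% against 17.0%). *Hnrnpd*, an RNA-binding protein gene of mRNA decay, had 625, 181 and 923 CPM in primordial and 1752, 4137 and 6888 CPM in primary DM libraries (log2 fold change 4.45, SE 2.18, adjusted p = 0.286, edgeR, and 2.82 with library size alone), with the primary libraries all above the primordial ones. *Lcor* again rested on primary DM replicate 2, with log2 fold change 4.68, SE 2.25, adjusted p = 0.286 in edgeR's test and -6.81 without that library.

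On the lower side, *Rack1* was lower in all primary than in all primordial DM libraries (log2 fold change -3.42, SE 2.99, adjusted p = 0.529, edgeR). *Slf2* had a log2 fold change of -3.40 (SE 3.02), and of -1.15 without primordial DM replicate 2. The median log2 fold change was 1.42 over the members and 0.35 over all genes tested with TMM scaling, and -0.10 and -0.96 with library size alone. A positive fold change was found for 176 members with TMM scaling (88%, against 53.3% of all genes tested) and 90 with library size alone (45% against 39%). In this comparison the choice of scaling thus moved the members' median from 1.42 to -0.10, and turned its sign. The ribosomal protein members had medians of 1.50 and -0.0752 with these scalings.

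**Figure D5:**
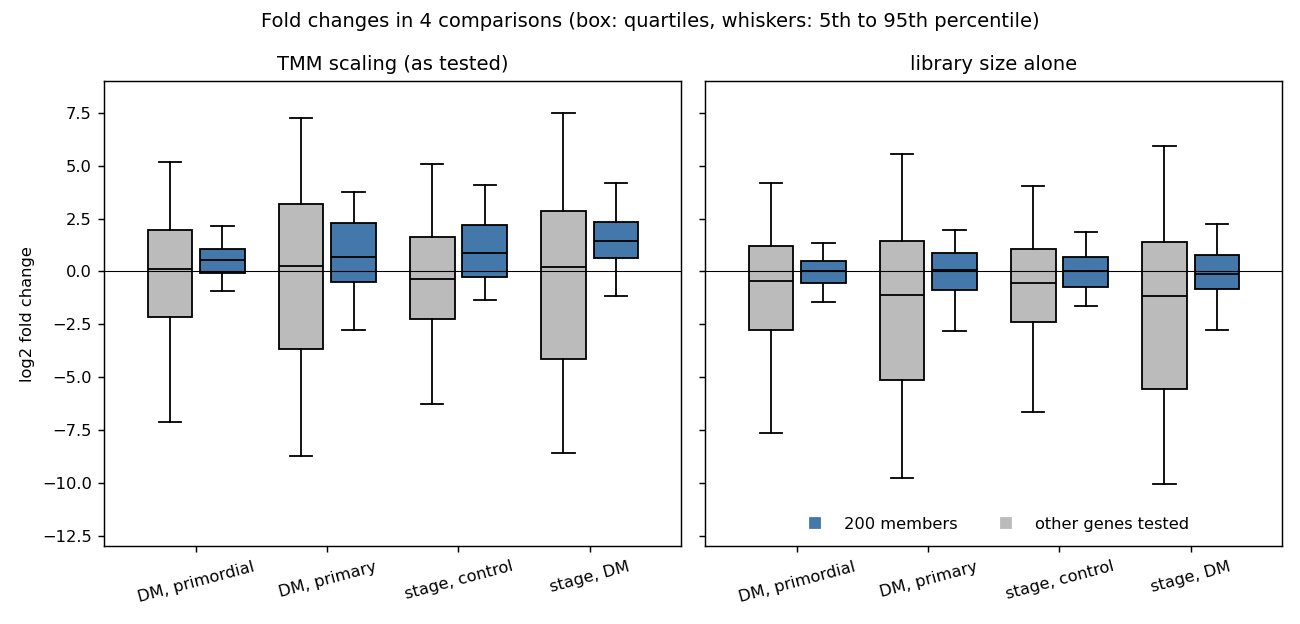
Log2 fold changes of the 200 members (blue) and of the other genes tested (grey) in 4 comparisons, with TMM scaling (left) and with library size alone (right); boxes are quartiles and whiskers the 5th to 95th percentile. The members' medians are above 0 with TMM scaling and lie between -0.10 and 0.0762 with library size alone, and their boxes are narrower than those of the other genes. The members were kept by their lowest CPM and hold no zeros, which the other genes may, so narrower boxes follow in part from the rule.

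Whether the effect of DM differed between stages was tested by the interaction term over all 12 libraries. Of 200 members 0 passed at an adjusted p under 0.05, where 0% of the 8500 genes tested did (edgeR). Of the members, 0 were higher and 3 lower at an unadjusted p under 0.05 (0% and 1.5% of the members, against 9.11% and 9.78% of all genes tested). DESeq2 called 6 members higher and 0 lower (4.76% and 3.20% of all genes tested). It gave no adjusted p for 48 members, and its scaling put the median log2 fold change at 0.48 over the members and 0.94 over all genes. The 3 members with the smallest p were *Slf2* (log2 fold change -10.28, SE 3.39, adjusted p = 0.116, edgeR), *Gm42715* and *Srcap* (log2 fold change -8.80, SE 3.28, adjusted p = 0.152, edgeR), lower with DM in primary relative to primordial follicles. Without control replicate 3 of primary follicles these values were -3.33 for *Slf2* and -4.08 for *Srcap*. In the other direction *Tmsb10* (log2 fold change 5.61, SE 2.94, adjusted p = 0.274, edgeR) and *Rps4x* (log2 fold change 5.33, SE 2.92, adjusted p = 0.294, edgeR) were among those with the smallest p, with 3.48 and 3.59 with library size alone. Both were under 5 CPM in control replicate 3 of primary follicles and had at least 707 CPM in the other primary libraries.

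In 33 members, a set chosen after its values were seen, the highest library was at most 10 times the lowest. They were 24 protein-coding genes, among them *Actb*, *Eif4g2*, *Usp9x*, *Rpsa*, *Rpl17*, *Hspa8*, *Trip12*, *Eef1a1*, *Fth1* (ferritin heavy chain) and *Nf1* (neurofibromin), and non-coding RNAs such as *Malat1*, *mt-Rnr2*, *Snord22* and *Rn7sk*. With library size alone their log2 fold changes with DM lay between -1.46 (*Rn7sk*) and 1.14 (*Supt6*) in primordial follicles, with a median of 0.15, and between -1.14 (*Supt6*) and 1.09 (*Trip12*) in primary follicles, with a median of -0.18. Between primary and primordial follicles they lay between -1.32 (*Rn7sk*) and 1.61 (*Supt6*) in controls and between -1.04 (*Tpt1*) and 1.51 (*Trip12*) after DM, with medians of 0.12 and -0.0949. With TMM scaling the 4 medians were 0.69, 0.35, 1.34 and 1.41. This choice caps the range of each gene, so narrow fold changes follow from it.

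Of these even members only *Malat1* had an unadjusted p under 0.05 in a comparison, DM against control in primordial follicles (log2 fold change 0.89, SE 0.45, adjusted p = 0.658, edgeR). Its DM libraries there (8678, 15875 and 14604 CPM) overlapped the controls (7943, 8960.3 and 13197 CPM), the means were 13052 ± 3841 and 10034 ± 2786 CPM (SD, n = 3), and the log2 fold change was 0.36 with library size alone and 0.57 without control replicate 1. In primary follicles the even member with the smallest p was *Rpl4*, with 831, 1296 and 535 CPM in controls and 1323, 3239 and 1456 CPM with DM (log2 fold change 2.32, SE 2.71, adjusted p = 0.643, edgeR, and 1.08 with library size alone and 1.31 without DM replicate 2). Between stages it was *Birc6* in controls (log2 fold change 3.25, SE 2.13, adjusted p = 0.799, edgeR, and 1.31 with library size alone and 0.59 without primary control replicate 3) and *Actb* after DM (log2 fold change 2.27, SE 1.37, adjusted p = 0.346, edgeR, and 0.56 with library size alone and 1.36 without primary DM replicate 2). The means of *Actb* were 15578 ± 5241 CPM in primordial and 24035 ± 7836 CPM in primary DM libraries (SD, n = 3), and 1 of the 3 primary libraries, replicate 1, lay within the range of the primordial ones. For the interaction it was *Supt6*, a transcription elongation factor gene (log2 fold change -2.51, SE 2.88, adjusted p = 0.638, edgeR, and -0.14 without control replicate 3 of primary follicles).

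A fit to the 1083 genes with at least 10 counts in every library, which holds all 200 members, leaves zeros out of the test. It called 0 genes in each of the 4 comparisons and the interaction (edgeR), and 2, 4, 9, 5 and 6 members had an unadjusted p under 0.05 there (1%, 2%, 4.5%, 2.5% and 3% of the members, against 4.52%, 13.8%, 6.37%, 14.2% and 13.6% of all genes of that fit). The members' medians were 0.18, 0.64, 0.54, 0.85 and 0.43 against 0.21, 0.53, 0.0812, 0.55 and 0.30 over all genes of that fit. In the tests of all genes the median SE of a member's log2 fold change was 1.50 for DM in primordial and 2.80 in primary follicles, and 2.16 and 2.48 for stage in controls and after DM, so that a p above the threshold does not show that a member was the same in both groups.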

How the data were processed

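The libraries were made from RNA of laser-captured oocytes. The methods describe linear amplification followed by an Illumina TruSeq RNA Access preparation, and then also name Smart-seq II for collected oocytes. Which of these preparations made the 12 libraries is thus not settled by the methods, and its effect on which RNAs were counted was not tested. According to the methods the authors trimmed the reads with trim_galore and aligned them with TopHat2, while the submitters' processing notes name STAR, and counted them per gene on mm10 with featureCounts and an Ensembl annotation that the methods give as release 19. The deposited file holds these raw read counts, not normalized, for 12 libraries, and its values are whole numbers. The strand setting and the treatment of reads with several matches are not given in the sources used here.

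CPM were computed from the column totals, and the 200 genes with the highest minimum over the 12 libraries were kept. The members and the gene lists, which were matched by symbol, were chosen with earlier results of these data known. Biotypes and coordinates were read from a GRCm38 annotation. Groups came from the sample titles. Counts were tested with edgeR 4.0.16 in R 4.3.3 (filterByExpr, TMM, glmQLFit, glmQLFTest) over all genes that passed the filter, p adjusted by Benjamini-Hochberg with the threshold at 0.05, on the 6 libraries of each comparison and on all 12 for the interaction. All 200 members passed the filter in every comparison. Each SE is the size of the log2 fold change divided by the root of its F statistic. DESeq2 1.42.0 was the second tool. Named members were the 10 with the highest minimum, the last 3 inside and first 3 outside the rule, the 5 with the smallest and the 5 with the largest SD of log2 CPM, the 3 per direction with the smallest p in each comparison, up to 5 not overlapping between DM and control in both stages, and up to 4 of each list by minimum. Other members were named after their values were seen, among them those with the smallest p of the even members. Some members that the rule names, and some sequences, are not reported here. Counts were also simulated for DM in primordial follicles. With a biological coefficient of variation of 0.4, edgeR recovered 75.1% of 197 genes changed by 2 on the log2 scale (6650 genes). It recovered 100.0% of 199 changed by 4 (6653 genes). At the variation of the libraries, 1.76, it recovered 0 of 187 and 0 of 181. The changed genes were drawn from all genes tested and given their common variation. The members had a lower median SE in that comparison, 1.50 against 2.84 over all genes tested. The recovery is thus not that of the members. Other scalings, filters, prior counts, a replicate block, fits to all libraries and fits without each library were the alternatives. Library totals bound counting error only, since amplified reads without molecular identifiers are not independent molecules.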

Additional observations from a re-analysis of the deposited data

How the results depend on the processing

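The number of members called by edgeR at an adjusted p under 0.05 was 0 in the 4 comparisons and the interaction under every edgeR alternative run, also without any single library. At an unadjusted p under 0.05 the calls, in the order DM in primordial follicles, DM in primary follicles, stage in controls, stage after DM and interaction, were 4, 4, 9, 3 and 3 members among 491, 508, 433, 746 and 1605 genes, and with DESeq2 8, 30, 1, 60 and 6 members among 650, 698, 287, 934 and 677 genes. The single gene called for DM in primordial follicles became 0 with RLE size factors in edgeR, with all 12 libraries in one fit, with the replicate block, among genes with at least 10 counts in every library, with library size alone and with no filter, and 0 to 3 without single libraries, with the most without DM replicate 1. With library size alone 1 gene was called for stage in controls, and 0 to 4 genes were called for stage after DM without single libraries, with the most without DM replicate 2 of primary follicles.

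The members' median log2 fold change moved by more than its spread between libraries with DESeq2 and with RLE size factors for DM in primordial follicles (1.03 and 1.03), for stage in controls (2.88 and 2.88, and 3.07 with TMMwsp factors) and for stage after DM (3.28 and 3.28). With library size alone it was 0.000678, 0.0313 and -0.10 in these 3 comparisons. Without single libraries it was 0.30 to 0.80 for DM in primordial follicles, 0.81 to 1.69 for stage after DM, 0.17 to 2.27 for DM in primary follicles, -0.16 to 1.83 for stage in controls and -0.26 to 1.82 for the interaction. The lower ends of the first pair of ranges were without control replicate 1 of primordial and without DM replicate 2 of primary follicles. The higher end was without control replicate 3 of primary follicles for DM in primary follicles and for the interaction, and the lower end was without it for stage in controls. The lower end for the interaction was without DM replicate 2 of primary follicles.

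With TMM scaling, fold changes of named members that changed sign without a library ran from -0.0116 to 8.14 for *Slf2* between stages in controls, from -4.88 to 0.40 for *Gstm1* and -5.32 to 0.0485 for *Atrx* with DM in primary follicles, from -0.62 to 0.16 for *Huwe1* with DM in primordial follicles, and for *Lcor* from -4.68 to 8.82 with DM in primary follicles and -6.81 to 7.83 between stages after DM. In CPM the DM libraries of *Gstm1*, *Atrx* and *Huwe1* stayed below all remaining controls in these fits. *Huwe1* also changed sign with DESeq2 (0.14) and with RLE size factors (0.14). The other sign changes came with the replicate block, for *Lcor* with DM in primary follicles (-0.48) and between stages after DM (-1.37). Same-numbered libraries of both groups deviated together with correlations of -0.0441 to 0.0356. With libraries that vary this much, such values do not exclude that the numbers paired them. With the block 0 members were called in each comparison. The other 610 values of named members under the alternatives kept their direction without passing the threshold, and 10 passed it in the same direction.

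Ranking genes by their second lowest CPM, by minimum CPM per kilobase of exon or by minimum TMM-normalized CPM shared 149, 155 and 172 genes with the 200. The cause of these shifts was not tested. With biological coefficients of variation of 1.76, 1.86, 1.76, 1.84 and 1.9 in the 5 fits, 3 libraries a group limit what can be called, and a p above the threshold does not show that a member was the same in both groups.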
